A study of Mus musculus with 18 samples.

Results

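The genes described here encode the machinery that copies DNA in S phase, the stage of the cell cycle in which the chromosomes are replicated. A list of 49 genes was fixed by symbol, and a gene was represented by the probe whose platform annotation gave that symbol, or by the brightest such probe where several did. Of the 49 listed genes, 48 were measured, out of 19084 genes named by 1 symbol on the array; no probe was named for Pcna, the sliding clamp. Of these 48 genes, 44 had 1 probe and 4 had several, and 0 were at background in all groups. Expression was measured in total RNA of C57Bl/6 mouse cells on 18 single-dye arrays, 3 in each of 6 groups. Fresh basophils were purified from bone marrow 3 days after injection of interleukin-3 (IL-3) complexed with an antibody against it. In the 4 groups of cultured basophils, purified basophils were kept for 5 days with IL-3 at 20 ng/ml. Their genotype was Cebpa f/f, called floxed here, or Cebpa +/+, called wild type, and both genotypes also carried RosaYFP/creER, so that the wild type cells had the same Cre. Each genotype was cultured with 4-hydroxytamoxifen at 100 nM for the 5 days, called treated here, or without it. Mast cells were grown from bone marrow over 4 weeks with IL-3 at 20 ng/ml. The labels give no genotype beyond the strain for fresh basophils and mast cells, and no age, sex or pooling of mice. Nor do they state whether the 3 arrays of a group stand for independent animals or cultures, and the p-values therefore cover the array-to-array spread only, part or all of which may be technical.

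Replication starts from origins that are licensed in G1 by the origin recognition complex, Cdc6 and Cdt1, which together load the MCM helicase onto DNA. At the start of S phase the Cdc7 and Dbf4 kinase, Mcm10, Cdc45 and the GINS complex turn the loaded helicase into an active one, and primase, the replicative polymerases, the clamp and its loader then copy the strands. Most of these genes are known targets of E2F transcription factors and are transcribed around the passage from G1 into S phase, and their RNA is low in cells that have left the cell cycle. Mature basophils are short-lived granulocytes that are thought to divide little, while cultured bone marrow mast cells grow with IL-3; C/EBP alpha, the product of Cebpa, is known to restrain division in myeloid cells.

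Promoters of the listed genes were searched for sequence features. The list was fixed by symbol and not by sequence, but most of its genes are known E2F targets. Its share of E2F motifs is therefore a description and no independent finding. In RefSeq promoter windows of the mouse build GRCm38.p6, each with 250 bases before and 50 bases from a start site on, 41 of the 49 listed genes were found, Pcna among them. An E2F motif, searched as TTTCCCGC, TTTGGCGC, TTTCGCGC or TTTGCCGC on both strands, was present in 15 of 41 genes (36.6%), against 2.6% of the 27025 genes in the same table. The CCAAT box, searched as CCAAT on both strands, was present in 24 of 41 genes (58.5%), against 41.1% of all genes. The 200 bases before the start are shown for 4 genes that hold an E2F match there and that differed between groups in the results below; they run 5′ to 3′ on the gene's strand, and capitals mark the E2F matches, overlapping ones merged.
Mcm5: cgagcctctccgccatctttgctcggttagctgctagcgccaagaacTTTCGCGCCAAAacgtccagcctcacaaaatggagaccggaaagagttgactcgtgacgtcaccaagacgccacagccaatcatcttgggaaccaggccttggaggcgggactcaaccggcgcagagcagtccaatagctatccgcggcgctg
Mcm6: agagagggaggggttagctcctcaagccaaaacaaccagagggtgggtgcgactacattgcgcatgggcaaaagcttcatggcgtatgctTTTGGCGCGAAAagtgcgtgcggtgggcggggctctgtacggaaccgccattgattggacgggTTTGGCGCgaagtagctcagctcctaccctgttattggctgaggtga
Pola1: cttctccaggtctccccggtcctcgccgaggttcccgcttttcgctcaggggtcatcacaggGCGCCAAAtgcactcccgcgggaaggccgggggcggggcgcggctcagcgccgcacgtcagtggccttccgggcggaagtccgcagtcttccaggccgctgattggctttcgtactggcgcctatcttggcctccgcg
Uhrf1: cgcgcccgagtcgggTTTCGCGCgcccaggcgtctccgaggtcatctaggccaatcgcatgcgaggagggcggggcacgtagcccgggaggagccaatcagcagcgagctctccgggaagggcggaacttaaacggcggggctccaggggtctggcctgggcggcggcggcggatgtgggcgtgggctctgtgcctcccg
These stretches lie at chr8:75109309-75109508 on the plus strand, chr1:128359706-128359905 on the minus strand, chrX:93632156-93632355 on the minus strand and chr17:56304113-56304312 on the plus strand. Counted from -1 at the base before the start, the matches in Mcm5 begin at -153 and -149, and those in Mcm6 at -110, -106 and -47. Those in Pola1 and Uhrf1 begin at -138 and -185; the Uhrf1 stretch belongs to 1 of the start sites listed for it. A match to these letters is a description and not evidence of binding.

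Deposited median intensities lay between 24 and 42 per array, and 47.6% to 55.2% of probes exceeded 30, the limit under which a probe is called at background here; the values carry no read depth, and the number of arrays limits the precision. Cebpa, the targeted gene, averaged 65.5 ± 6.60 in treated floxed basophils, against 2778 ± 220.0 in treated wild type basophils (SD, n = 3 each). Without the drug it averaged 983 ± 63.5 in floxed basophils, against 2369 ± 203 in wild type basophils. It averaged 2243 ± 144 in fresh basophils, against 55.5 ± 9.13 in mast cells. The summed intensity of 12 basophil markers (among them Mcpt8, Prss34, Cd200r3 and Il3ra) was 189186 to 250450 over the 15 basophil arrays, against 59377 to 62687 in mast cells, where Il4 and Itga2 were at background. Itga2 was also at background in treated floxed basophils, whose sums of 189186 to 195734 were the lowest of the basophil groups. The 12 mast cell markers summed to 73070 to 147587 over the basophil arrays, against 196881 to 201238 in mast cells.

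Replication genes were highest in fresh basophils, intermediate in mast cells, lower in floxed cultured basophils and lowest in wild type cultured basophils. The mean of log2(intensity + 16) over the 48 genes was 9.54 to 9.65 on the fresh basophil arrays, 8.43 to 8.48 in treated floxed basophils, 8.44 to 8.53 in untreated floxed basophils, 7.99 to 8.0 in treated wild type basophils, 8.0 to 8.03 in untreated wild type basophils and 8.95 to 8.99 in mast cells. These ranges did not overlap between fresh basophils, mast cells, floxed and wild type cultures. With and without the drug they overlapped within the floxed genotype, while the treated wild type arrays lay just below the untreated wild type ones. Of the 48 genes, 38 had their highest group mean in fresh basophils and 8 in mast cells, namely Orc6, Gins2, Gins3, Pold1, Rpa1, Rpa3, Tk1 and Ccne2. Chaf1b was highest in treated floxed basophils and Rfc2 in treated wild type basophils. For 34 genes each of the 3 fresh basophil arrays was above all 15 other arrays, against 9.86% of all genes (13.5% of genes above background). For 1 gene, Rfc2, each was below them, against 8.26% of all genes (11.7% of genes above background). The lowest mean was in untreated wild type basophils for 24 genes and in treated wild type basophils for 20; the exceptions were Cdc45 and Ccne2, lowest in treated floxed basophils, Rfc2, lowest in fresh basophils, and E2f2, lowest in mast cells. In these bulk samples a smaller share of cells in S phase and less RNA per cell cannot be told apart.

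**Figure D1:**
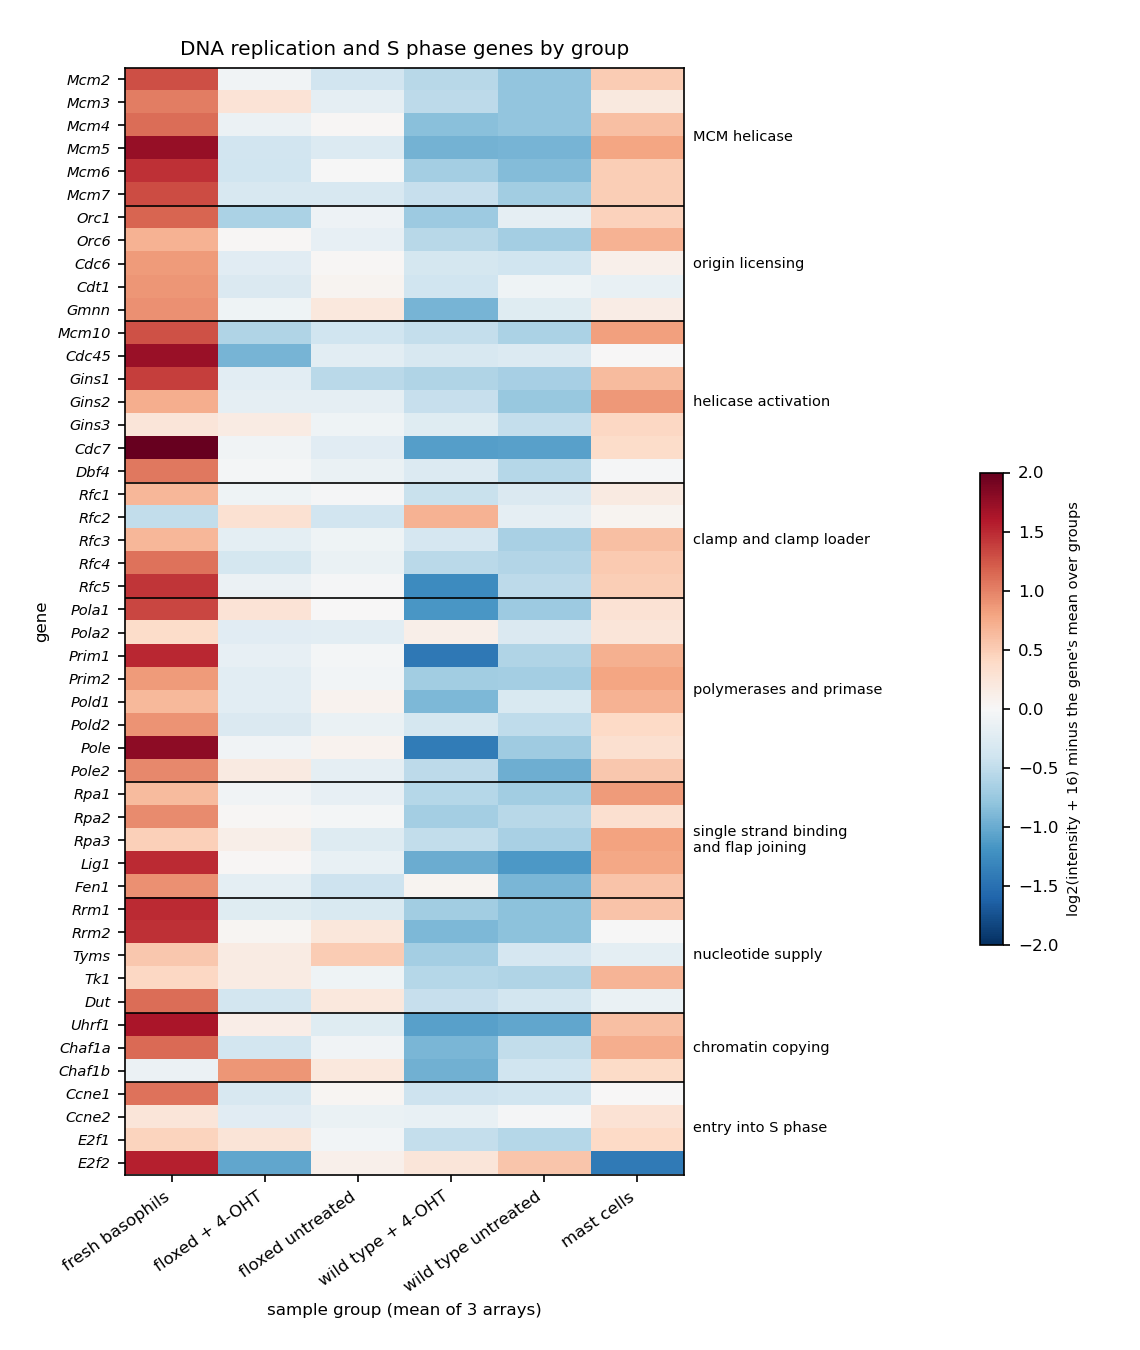
Group means of 48 replication genes (rows, by role) in 6 sample groups (columns), as log2(intensity + 16) minus the gene's mean over the groups; red is above and blue below that mean. Fresh basophils hold the highest mean of 38 genes, and 44 genes have their lowest mean in 1 of the wild type cultures.

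The MCM genes encode the ring of the replicative helicase. Mcm4 had 4229, 3799 and 3573 in fresh basophils, against 2781, 2618 and 2611 in mast cells. In culture Mcm4 had 1635, 1708 and 1518 in treated floxed basophils and 1748, 1785 and 1870.0 in untreated floxed basophils, against 977, 980.5 and 994 in treated wild type basophils and 994, 1046 and 989 in untreated wild type basophils. No array of a floxed culture overlapped with a wild type one, and treated and untreated wild type arrays overlapped. Mcm5, which varied most among the 6, had 1913, 2408 and 2233 in fresh basophils, against 1148, 1147 and 1082 in mast cells. Its cultured values were 486, 459 and 529 in treated floxed basophils and 546, 509 and 524 in untreated floxed basophils, against 341, 312 and 327 in treated wild type basophils and 324, 339 and 328 in untreated wild type basophils. The order of the groups was the same as for Mcm4, with both drug pairs overlapping. All 6 genes passed the test upwards in fresh over untreated wild type basophils, against 20% of all genes (29.2% of genes above background). All 6 also did in untreated floxed over untreated wild type basophils, against 10% (15.1%). In treated floxed over treated wild type basophils 5 of 6 did, against 18.5% (27%). Mcm7 was the exception there (0.14 on the log2 scale, adjusted p = 0.286).

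The origin licensing genes act before S phase begins, when the helicase is loaded. Cdt1, which loads the helicase with Cdc6, had 1830.3, 1578 and 1522 in fresh basophils, against 803, 810.4 and 788 in mast cells. In culture it had 667, 728 and 763 in treated floxed basophils and 992, 858 and 909 in untreated floxed basophils, against 673, 691 and 643 in treated wild type basophils and 832, 868 and 793 in untreated wild type basophils. Fresh basophils stood above all other groups, and the genotypes overlapped with the drug. Orc1, the largest subunit of the origin recognition complex, had 116, 118 and 138 in fresh basophils, against 78.1, 53.1 and 81.3 in mast cells. Its levels were 25.2, 20.1 and 27.8 in treated floxed basophils and 38.3, 40.3 and 47.5 in untreated floxed basophils, against 19.2, 25.9 and 20.3 in treated wild type basophils and 33.1, 46.0 and 38.5 in untreated wild type basophils. Both drug-treated groups were at background for Orc1 and did not overlap with their untreated counterparts. Cdc6 was above background in fresh basophils, with 37.8, 37.0 and 33.1, and at background in the other 5 groups, where its values lay between 4.67 and 15.9. Gmnn, which encodes geminin, an inhibitor of Cdt1, had 691, 733 and 724 in treated floxed basophils against 379, 388 and 409 in treated wild type basophils, with no overlap.

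Among genes that activate the helicase, Cdc7 had the widest range and Cdc45 followed another pattern in the cultures. Cdc45, a subunit of the active helicase, had 2235, 2398 and 2228 in fresh basophils, against 651, 728 and 682 in mast cells. In culture it had 344, 368 and 342 in treated floxed basophils and 544, 604 and 619 in untreated floxed basophils, against 555, 556 and 520.0 in treated wild type basophils and 568, 549.6 and 574 in untreated wild type basophils. Treated floxed basophils were below every other array, and the untreated genotypes overlapped. Cdc7, the kinase that phosphorylates the helicase, had 1470.2, 1307 and 1452 in fresh basophils, against 389, 451 and 396 in mast cells. It had 343, 264 and 296 in treated floxed basophils and 257, 289 and 256 in untreated floxed basophils, against 146, 136 and 133 in treated wild type basophils and 130.0, 152 and 139 in untreated wild type basophils. The genotypes did not overlap, and the drug pairs overlapped in both genotypes. Dbf4, the activating subunit of that kinase, averaged 1426 ± 16.6 in fresh basophils, against 447 ± 15 in untreated wild type basophils (SD, n = 3 each).

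The clamp loader held a gene that ran against most of the others. Rfc2, a small subunit of the loader, had 4338, 4577 and 4507 in fresh basophils, against 6217, 7088 and 6279.6 in mast cells. In culture Rfc2 had 7561, 8442 and 7236 in treated floxed basophils and 4782, 4734 and 4867 in untreated floxed basophils, against 10374, 10041 and 10203 in treated wild type basophils and 5836, 5233 and 5496 in untreated wild type basophils. Its fresh basophil arrays were the lowest of all 18, and both drug-treated groups lay above their untreated counterparts without overlap. The probe of Rfc2 was far brighter than those of the other loader genes, with a mean of 6545 over 18 arrays, against 150 to 609. Rfc5, another small subunit, had 1917, 1137 and 1195 in fresh basophils, against 744, 841 and 581 in mast cells. It had 568, 390.4 and 434 in treated floxed basophils and 365, 668 and 494 in untreated floxed basophils, against 186, 189 and 226 in treated wild type basophils and 339, 324 and 371 in untreated wild type basophils. Replicates of Rfc5 were more scattered than those of the genes above, and fresh basophils remained above all other arrays.

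Several polymerase and primase genes were low in wild type cultures. Prim1, the catalytic subunit of primase, had 1359.9, 1009 and 1225 in fresh basophils, against 756, 631 and 663 in mast cells. Its cultured values were 402, 322 and 374 in treated floxed basophils and 412, 372 and 407 in untreated floxed basophils, against 128, 149 and 149 in treated wild type basophils and 276, 289.8 and 232 in untreated wild type basophils. Treated wild type basophils lay below all other groups, and the floxed groups overlapped with each other. Pole, the catalytic subunit of the leading strand polymerase, had 353, 247 and 248 in fresh basophils, against 98.3, 86.4 and 86.7 in mast cells. It had 74.1, 70.3 and 52.9 in treated floxed basophils and 65.4, 74.2 and 81.0 in untreated floxed basophils, against 16.9, 19.4 and 12.8 in treated wild type basophils, at background, and 37.5, 38.5 and 32.1 in untreated wild type basophils. Pola1, which encodes the catalytic subunit of DNA polymerase alpha, averaged 155 ± 17.1 in treated floxed basophils, against 48.4 ± 17.5 in treated wild type basophils (SD, n = 3 each). Pola2, the regulatory subunit of that polymerase, averaged 414 ± 12.5 in treated floxed basophils, against 531 ± 8.26 in treated wild type basophils.

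Of the genes that protect single strands and join fragments, Rpa1, which encodes the large subunit of replication protein A, had 7236, 7619 and 7491 in fresh basophils, against 8601, 8658 and 8658 in mast cells. Cultured cells gave 4402, 4486 and 4809 in treated floxed basophils and 4163, 4370.4 and 4324 in untreated floxed basophils, against 3288, 3233 and 3150.4 in treated wild type basophils and 3054, 2863 and 2959 in untreated wild type basophils. Mast cells were highest here, just above fresh basophils, and all floxed arrays stood above all wild type ones. Lig1, the ligase that joins Okazaki fragments, had 4448, 5046 and 4877 in fresh basophils, against 2927, 2851 and 2895 in mast cells. It had 1688, 1653 and 1829 in treated floxed basophils and 1583, 1476 and 1485 in untreated floxed basophils, against 793, 890.4 and 834 in treated wild type basophils and 805, 700.1 and 753 in untreated wild type basophils. Fen1, the nuclease that removes flaps, had 1082, 1127 and 1033 in treated wild type basophils against 569.8, 594 and 480.1 in untreated wild type basophils, and 788, 940.0 and 993 in treated floxed basophils against 763, 753 and 803 in untreated floxed basophils. For Fen1 the wild type groups did not overlap, and the floxed groups overlapped.

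The remaining roles were nucleotide supply, the copying of chromatin and entry into S phase. Rrm2, the regulated subunit of ribonucleotide reductase, had 3109.8, 2389.6 and 2879.6 in fresh basophils, against 1072, 889 and 1027 in mast cells. In culture it had 1000.2, 884 and 1185 in treated floxed basophils and 1245, 1080.2 and 1161 in untreated floxed basophils, against 503, 558 and 521 in treated wild type basophils and 537, 588 and 539 in untreated wild type basophils. The treated floxed arrays overlapped with those of mast cells, and neither floxed group overlapped with a wild type culture. Uhrf1, which recognises newly copied DNA methylated on the old strand, had 1119.8, 1086 and 1034 in fresh basophils, against 495, 515 and 554 in mast cells. Its cultured values were 367, 359 and 384 in treated floxed basophils and 275, 271 and 302 in untreated floxed basophils, against 161, 136 and 155 in treated wild type basophils and 146, 174 and 146 in untreated wild type basophils. Chaf1b, a subunit of the chromatin assembly factor that places histones on new DNA, had 1131, 843 and 1149.8 in fresh basophils, against 1477, 1578 and 1349 in mast cells. Levels in culture were 2284, 2406 and 1648 in treated floxed basophils and 966, 1601 and 1446 in untreated floxed basophils, against 544, 517 and 663 in treated wild type basophils and 839.8, 783 and 936 in untreated wild type basophils. For Chaf1b each of the treated floxed arrays was above every array of the other groups, which no other gene of the list showed.

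The E2F genes encode transcription factors that switch on replication genes, and the pair measured here differed from each other. E2f1 had 423, 405 and 442 in fresh basophils, against 451, 375 and 397 in mast cells. In culture it had 373, 374 and 353 in treated floxed basophils and 335, 245 and 308 in untreated floxed basophils, against 215, 219 and 213 in treated wild type basophils and 210.0, 204 and 189 in untreated wild type basophils. E2f1 thus ranked the groups like most replication genes, with fresh basophils and mast cells overlapping. E2f2 had 857, 743 and 667 in fresh basophils, against 80.7, 85.3 and 79.9 in mast cells. It had 109, 114 and 114 in treated floxed basophils and 301, 249 and 254 in untreated floxed basophils, against 304, 302 and 279 in treated wild type basophils and 373, 386 and 349 in untreated wild type basophils. All 15 basophil arrays were above the mast cell arrays for E2f2, and treated floxed basophils were the lowest of the basophil groups. Of the cyclin E genes, whose products activate Cdk2 at the entry into S phase, Ccne1 averaged 358 ± 23.1 in fresh basophils, against 117 ± 13.4 in untreated wild type basophils (SD, n = 3 each). Ccne2 passed no test with its brighter probe, while its other probe did in 5 comparisons, with a log2 fold change of 2.11 in fresh over untreated wild type basophils and 1.14 in untreated floxed over untreated wild type basophils.

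**Figure D2:**
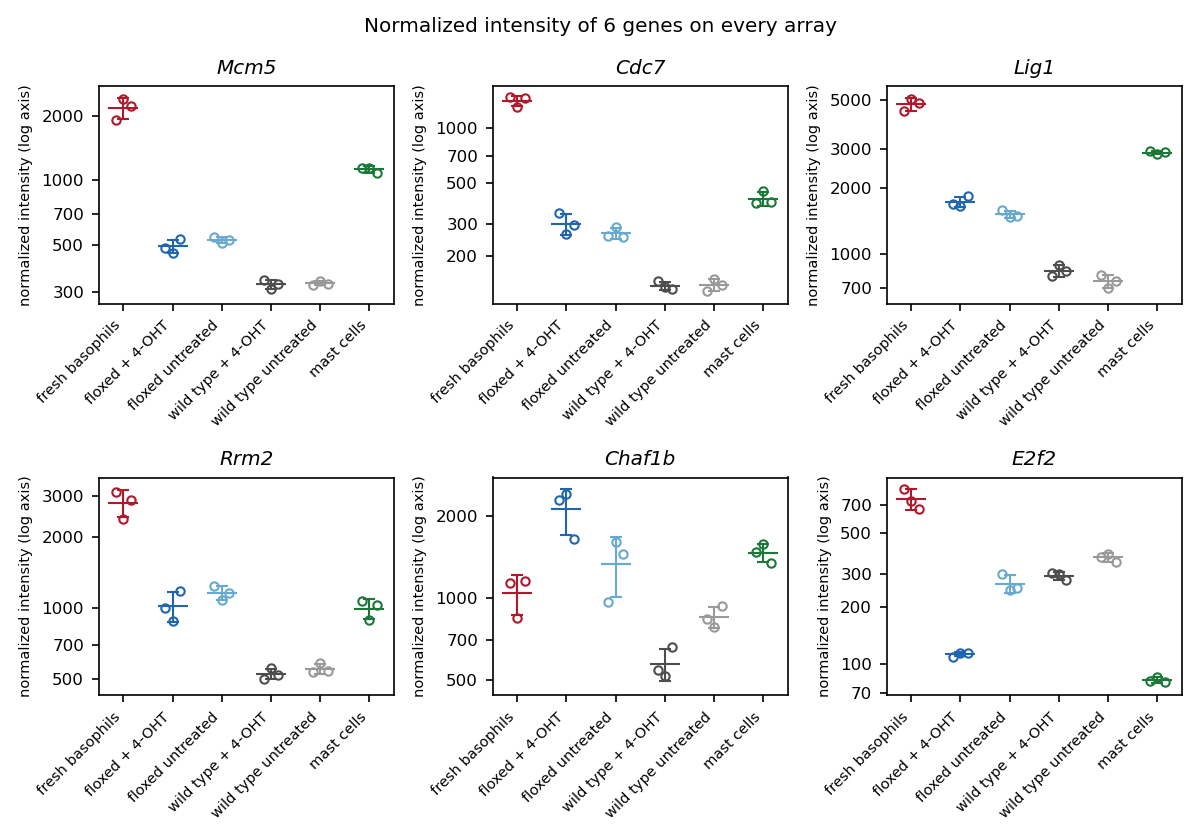
Normalized intensity (log axis, different for each panel) of 6 genes on each of 18 arrays; circles are arrays, and bars give the mean ± SD of the 3 arrays of a group. Mcm5, Cdc7, Lig1 and Rrm2 are highest in fresh basophils and lowest in wild type cultures, Chaf1b is highest in treated floxed basophils and E2f2 is lowest in mast cells.

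The first comparison set fresh basophils against untreated wild type basophils after 5 days of culture. Of 48 replication genes, 45 were higher in fresh basophils and 1 was lower, against 20% of all 19084 genes higher and 19.6% lower; among genes above background in either group the shares were 29.2% and 28.7%. The median log2 fold change of the 48 genes was 1.52, against -0.01 over all genes. On the log2 scale the 4 largest increases were 3.19 ± 0.10 for Cdc7 (SE, adjusted p = 1.68e-13), 2.68 ± 0.089 for Uhrf1 (adjusted p = 3.04e-13), 2.66 ± 0.088 for Mcm5 (adjusted p = 3.05e-13) and 2.64 ± 0.082 for Lig1 (adjusted p = 1.31e-13). Cdc7 was thus 9.13-fold higher and Mcm5 6.32-fold higher. Rfc2 was the gene that was lower, by a log2 fold change of -0.30 ± 0.081 (adjusted p = 0.00685), and it passed in neither direction when arrays were scaled to a common median or not normalized. Chaf1b and Ccne2 did not pass (0.27 and 0.28). Cdc6 was at least 1.2-fold higher, since cultured basophils were at background. The groups differ in culture and in the Cre allele together, as the labels give that allele for the cultured cells, so the contributions of these cannot be told apart. The labels give the injection of complexed IL-3 for fresh basophils only, so its contribution cannot be told apart either.

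Most other replication and mitosis genes were higher in fresh basophils too. Of 38 further replication genes, 29 were higher and 3 lower in fresh basophils, and a median of 0.85 on the log2 scale, with 2.51 for Cdca7, 2.49 for the nuclease Dna2, 2.33 for Tipin and 2.17 for its partner Timeless. Of 18 mitosis genes measured, 17 were higher and 0 lower, with a median of 2.48 over the 18. Among the higher ones were the proliferation marker Mki67 (3.09) and the spindle checkpoint genes Bub1b (3.09) and Ttk (3.06). The mitosis genes Kif20a and Cdk1 were at background in both groups, so no fold was measured for them. The 17 counted as higher include at least 1 of this pair. Regulators of the passage from G1 to S were mixed, with 11 of 29 higher, such as Ccna2 (2.73) and the repressors E2f8 (2.52) and E2f7 (2.27), and 7 lower, such as the G1 cyclin Ccnd2 (-1.93). Markers of neutrophils, eosinophils and erythroid cells were mostly higher in fresh basophils as well, while other marker lists were mixed or lower. The 14 neutrophil markers summed to 114933 to 120543 in fresh basophils, against 32836 to 34264 in untreated wild type basophils, and 11 of 14 were higher. The 7 eosinophil markers summed to 48916 to 50273 in fresh basophils, against 4801 to 4967 in untreated wild type basophils. The 8 erythroid markers summed to 2875 to 2910 in fresh basophils, against 1167 to 1362 in untreated wild type basophils. Of 5 megakaryocyte markers 0 were higher and 4 lower, of 8 B cell markers 2 were higher and 0 lower, and of 8 T and NK cell markers 2 were higher and 1 lower. Stem and progenitor markers summed to 13626 to 14888 in fresh basophils, against 15208 to 16439 in untreated wild type basophils. Of the 9 monocyte and macrophage markers 6 were higher and 3 lower. T and NK cell markers summed to 3904 to 4347 in fresh basophils, against 297 to 330.2 in untreated wild type basophils, with 5 of the 8 at background in each group. The part of these markers in the result was not tested.

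Fresh basophils were next set against mast cells, the comparison named in the study's design. Of the 48 genes, 34 were higher and 5 lower in fresh basophils, against 20.7% of all genes higher and 24.7% lower (28.5% and 34.4% of genes above background), with a median log2 fold change of 0.71 for the list and -0.04 for all genes. The largest increases were 2.97 ± 0.096 for E2f2 (SE, adjusted p = 6.68e-14), 1.74 ± 0.10 for Cdc7 (adjusted p = 2.06e-10), 1.71 ± 0.077 for Cdc45 (adjusted p = 6.64e-12) and 1.47 ± 0.14 for Pole (adjusted p = 1.1e-07). The lower genes were Rfc2 (-0.54 ± 0.081, adjusted p = 3.07e-05), Chaf1b (-0.50 ± 0.18, adjusted p = 0.0377), Rpa3 (-0.32 ± 0.076, adjusted p = 0.00232), Tk1 (-0.25 ± 0.097, adjusted p = 0.0466) and Rpa1 (-0.21 ± 0.068, adjusted p = 0.0184). Without between-array normalization 44 genes were higher and 0 lower, and with median scaling 34 were higher and 1 lower, so the lower genes depended on the scaling; leaving out fresh basophil replicate 1, fresh basophil replicate 2 or mast cell replicate 1 left 3 lower. Orc6, Gins2, Gins3, Pola2, Prim2, Pold1, Rfc3, E2f1 and Ccne2 passed in neither direction. Cdc6 was at least 1.2-fold higher. Fresh basophils and mast cells differ in cell type, in culture and in the labelled injection together, so the contributions of these cannot be told apart.

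By role, all 6 MCM genes, 4 of 5 licensing genes and 5 of 7 helicase activation genes were higher in fresh basophils than in mast cells, while the single strand binding and flap joining genes split into 3 higher and 2 lower. Mitosis genes were higher for 17 of 18, with 1.82 for Ttk and 1.79 for the spindle motor Kif11. Kif20a and Cdk1 were at background in both groups here too, and the 17 counted as higher include at least 1 of this pair. Further replication genes were higher for 22 and lower for 6 of 38, the largest differences being 3.10 for Dna2 and -1.46 for Pole4. Among regulators of G1 to S, 9 of 29 were higher, such as E2f8 (2.57), and 11 lower, such as Mycn (-3.63), Ccnd2 (-1.82) and the Cdk inhibitor Cdkn1a (-1.71). Neutrophil markers summed to 114933 to 120543 in fresh basophils, against 6405 to 7788 in mast cells, and monocyte and macrophage markers to 18800 to 21019 in fresh basophils, against 2479 to 2736 in mast cells. Eosinophil markers summed to 48916 to 50273 in fresh basophils, against 632 to 727 in mast cells, where Siglecf was at background, and 6 of 7 were higher and 1 lower. T and NK cell markers summed to 3904 to 4347 in fresh basophils, against 126 to 137 in mast cells, with 2 of 8 higher and 1 lower. B cell markers summed to 1619 to 1784 in fresh basophils, against 487 to 540.0 in mast cells, and erythroid markers to 2875 to 2910 in fresh basophils, against 2102 to 2222 in mast cells. Stem and progenitor markers summed to 13626 to 14888 in fresh basophils, against 39122 to 44107 in mast cells. The part of these markers in the result was not tested.

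**Figure D3:**
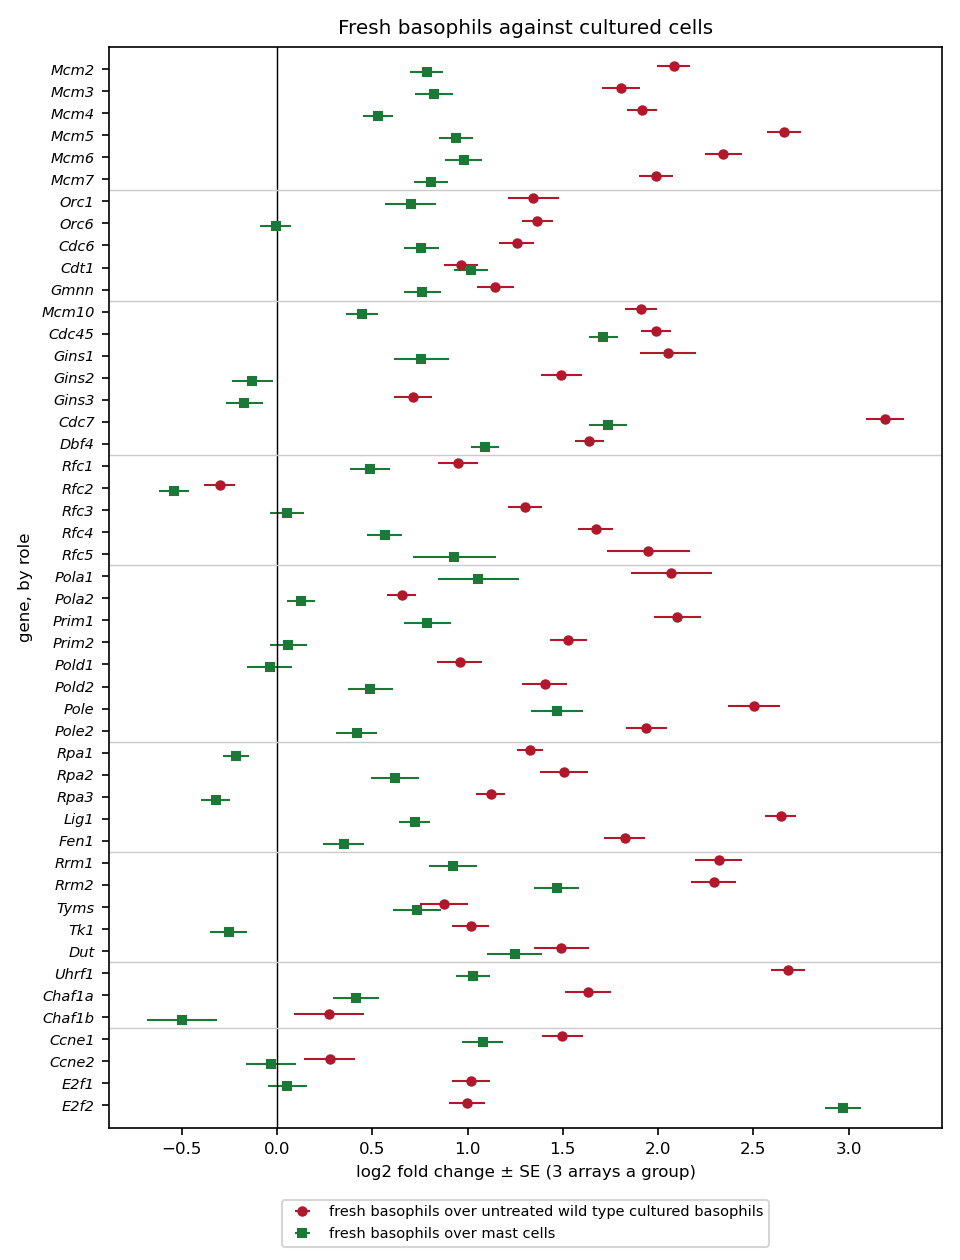
Log2 fold change ± SE of 48 genes, ordered by role, in fresh basophils over untreated wild type cultured basophils (circles) and over mast cells (squares); positive values are higher in fresh basophils, and both sets share the fresh basophil arrays. All genes but Rfc2 lie above 0 against cultured basophils, and the values against mast cells are centred on 0.71; the fitted values of Cdc6 understate its change, as the other groups were at background.

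Untreated wild type cultured basophils were lower than mast cells for nearly the whole list. Of the 48 genes, 43 were lower and 1 higher, against 25.2% of all genes lower and 19.1% higher (35.7% and 26.7% of genes above background), and the median log2 fold change was -1.03, against -0.05 over all genes. The largest decreases were -1.92 ± 0.082 for Lig1 (SE, adjusted p = 3.43e-12), -1.72 ± 0.088 for Mcm5 (adjusted p = 4.23e-11), -1.65 ± 0.089 for Uhrf1 (adjusted p = 8.14e-11) and -1.62 ± 0.11 for Gins2 (adjusted p = 1.5e-09). E2f2 was the gene that was higher, with 1.97 ± 0.096 (adjusted p = 2e-11). Cdt1, Dut, Tyms and Ccne2 did not pass. Cdc6, counted among the lower genes, was at background in both groups, so its fitted difference is no measured fold. Of the mitosis genes 14 of 18 were lower and 0 higher, with -1.90 for cyclin B2 (Ccnb2) and -1.55 for Mki67. Further replication genes were lower for 24 and higher for 8 of 38. This comparison shares its wild type arrays with the comparison of fresh basophils and culture, and its mast cell arrays with that of fresh basophils and mast cells. By the labels its groups differ in cell type, in time in culture and in the Cre allele together, so the contributions of these cannot be told apart.

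Genotype was compared first without the drug, where floxed basophils had not been given 4-hydroxytamoxifen. Of the 48 genes, 37 were higher and 1 lower in untreated floxed than in untreated wild type basophils, against 10% of all genes higher and 8.43% lower (15.1% and 12.5% of genes above background). The median log2 fold change was 0.51, against 0.00 over all genes. The largest increases were 1.04 ± 0.12 for Rrm2 (SE, adjusted p = 7.75e-06), 1.00 ± 0.082 for Lig1 (adjusted p = 2.13e-07), 0.87 ± 0.096 for Mcm6 (adjusted p = 6.49e-06) and 0.86 ± 0.10 for Cdc7 (adjusted p = 1.16e-05). Rrm2 was 2.06-fold and Mcm6 1.82-fold higher. E2f2 was lower (-0.45 ± 0.096, adjusted p = 0.00345), a call lost with median scaling. Cdc6 was at background in both genotypes, so its fitted difference, which passed, is no measured fold. All 6 MCM genes, all 5 single strand binding and joining genes, all 5 nucleotide supply genes and all 3 chromatin genes were higher.

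With the drug, 31 of the 48 genes were higher and 4 lower in floxed than in wild type basophils, against 18.5% of all genes higher and 16.5% lower (27% and 24% of genes above background). The median log2 fold change was 0.49, against 0.00 over all genes. The largest increases were 1.84 ± 0.18 for Chaf1b (SE, adjusted p = 6.36e-07), 1.44 ± 0.21 for Pola1 (adjusted p = 5.26e-05) and 1.27 ± 0.12 for Prim1 (adjusted p = 4.23e-07). Pole was at least 2.19-fold higher (adjusted p = 9.41e-07), as treated wild type basophils were at background. The lower genes were E2f2 (-1.28 ± 0.096, adjusted p = 2.1e-08), Cdc45 (-0.61 ± 0.077, adjusted p = 1.01e-05), Rfc2 (-0.40 ± 0.081, adjusted p = 0.000951) and Pola2 (-0.35 ± 0.075, adjusted p = 0.00154); the call for Pola2 was lost with median scaling and without normalization.

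The comparisons with and without the drug use separate arrays, so their calls can be set side by side. A higher level in both was found for 28 genes, which is 90.3% of those higher with the drug and 75.7% of those higher without it; over all genes, 1333 were higher in both, 37.8% of those higher with the drug and 69.8% of those higher without it. E2f2 was lower in both. Orc1, Cdt1, Mcm10 and Ccne2 passed in neither. For 27 of the 48 genes all 6 floxed arrays, treated and untreated, were above all 6 wild type arrays, against 7.13% of all genes (10.4% of genes above background), and for 0 of the 48 they were below, against 5.96% of all genes (8.73% of genes above background). These 27 include Mcm2, Mcm3, Mcm4, Mcm5 and Mcm6, all 3 Rpa genes, Lig1, Rrm1, Rrm2, Uhrf1, Chaf1b and E2f1. Across the 48 genes the genotype differences with and without the drug had a Pearson correlation of 0.738, given as a description, since genes of 1 array are not independent replicates. The genotypes came from different mice, as the alleles differ, so a difference between the cultures of each genotype cannot be told apart from the allele.

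**Figure D4:**
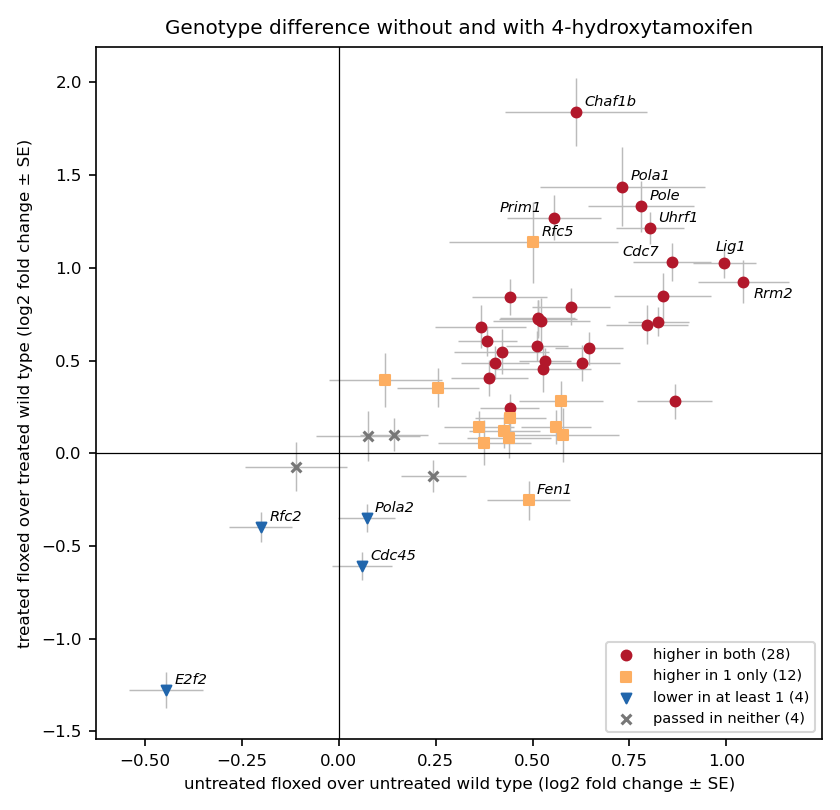
Log2 fold change of floxed over wild type basophils without 4-hydroxytamoxifen (x axis) and with it (y axis) for 48 genes, with SE bars; shapes give which comparisons a gene passed. In both, 28 genes are higher, Chaf1b is farthest up with the drug, and E2f2 lies below 0 on both axes. The value of Pole with the drug is a fitted one, as treated wild type basophils were at background. Both values of Cdc6, at background in all cultures, and that of Orc1 with the drug, at background in both treated groups, are no measured folds.

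Other genes of the cell cycle were compared between the genotypes as well. Of the mitosis genes, 13 of 18 were higher and 0 lower in untreated floxed basophils, with 1.20 for Ccnb2 and 1.11 for Ttk. With the drug 12 of 18 were higher and 0 lower, with 0.93 for the mitotic kinase Plk1 and 0.81 for Birc5. Further replication genes were higher for 16 and lower for 2 of 38 without the drug, and higher for 18 and lower for 2 with it, among them Pole4 (1.29), the maintenance methyltransferase Dnmt1 (1.13) and the histone chaperone Asf1a (-1.16). Dscc1 was at least 2.01-fold higher in treated floxed basophils. Regulators of G1 to S gave 11 higher and 3 lower of 29 without the drug, and 11 higher and 7 lower with it, among them the G1 cyclin Ccnd1 (-1.08 without and -1.51 with the drug) and the Cdk inhibitor Cdkn1b (-0.83 without the drug). Rb1, which restrains E2F, was higher in treated floxed than in treated wild type basophils (1.14).

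Markers of other cell types differed between the genotypes as well. Of 9 monocyte and macrophage markers, 7 were lower and 1 higher without the drug, and 8 were lower and 1 higher with it. They summed to 10803 to 10908 in treated floxed basophils, against 14703 to 15349 in treated wild type basophils, and to 11129 to 12295 in untreated floxed basophils, against 13473 to 14946 in untreated wild type basophils; Fcgr1 was at background in all 4 cultures. Neutrophil markers summed to 18095 to 20898 in treated floxed basophils, against 21811 to 23292 in treated wild type basophils, and to 16567 to 18672 in untreated floxed basophils, against 32836 to 34264 in untreated wild type basophils. Eosinophil markers summed to 10894 to 11207 in treated floxed basophils, against 3859 to 4110.1 in treated wild type basophils, with 3 of 7 higher and 4 lower. Without the drug they summed to 7554 to 8578 in floxed basophils, against 4801 to 4967 in wild type basophils, with 1 of 7 higher and 4 lower, and Il5ra was at background in both floxed groups. The 5 megakaryocyte markers summed to 8675 to 11080.1 in treated floxed basophils, against 13419 to 14720 in treated wild type basophils, and to 4272 to 5443 in untreated floxed basophils, against 10733 to 12418 in untreated wild type basophils; Itga2b was at background in all of these. Mast cell markers summed to 141023 to 147587 in treated floxed basophils, against 103394 to 104284 in treated wild type basophils, but to 87100 to 87205 in untreated floxed basophils, against 92942 to 95078 in untreated wild type basophils. Stem and progenitor markers summed to 19091 to 22970 in treated floxed basophils, against 17227 to 17987 in treated wild type basophils, with 6 of 9 higher and 1 lower. Without the drug they summed to 16456 to 17811 in floxed basophils, against 15208 to 16439 in wild type basophils, with 2 higher and 3 lower. The part of these cell types in the genotype difference of the replication genes was not tested.

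The effect of the drug was compared within each genotype, first in floxed basophils. Of 48 genes, 8 were higher and 8 lower in treated than in untreated floxed basophils, against 11.2% of all genes higher and 11.1% lower, and the median log2 fold change was -0.07. The higher genes were led by Rfc2 (0.69 ± 0.081, adjusted p = 8.65e-06), Chaf1b (0.67 ± 0.18, adjusted p = 0.0151), Mcm3 (0.46 ± 0.10, adjusted p = 0.00314) and Rpa3 (0.38 ± 0.076, adjusted p = 0.0015). The lower genes were led by E2f2 (-1.14 ± 0.096, adjusted p = 1.85e-07), Cdc45 (-0.72 ± 0.077, adjusted p = 3.07e-06), Dut (-0.58 ± 0.14, adjusted p = 0.00839) and Orc1, at least 1.4-fold lower (adjusted p = 0.00939). The split depended on the scaling, with 0 higher and 6 lower under median scaling. It also depended on single arrays: 4 were higher without treated floxed replicate 1, 5 higher and 5 lower without treated floxed replicate 2, and 5 lower without untreated floxed replicate 3. The call for Chaf1b was lost without treated floxed replicate 1 or 2 or untreated floxed replicate 1, and that for Orc1 without treated floxed replicate 2 or untreated floxed replicate 3.

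In wild type basophils, which have no floxed allele, the drug left 6 genes higher and 10 lower, against 12.5% of all genes higher and 11.8% lower, with a median log2 fold change of 0.01. Fen1 (0.96 ± 0.11, adjusted p = 8.08e-06), Rfc2 (0.89 ± 0.081, adjusted p = 1.35e-06), Pole2 (0.46 ± 0.11, adjusted p = 0.00428) and Pola2 (0.41 ± 0.075, adjusted p = 0.000692) were the highest. Prim1 (-0.83 ± 0.12, adjusted p = 0.000108), Rfc5 (-0.74 ± 0.22, adjusted p = 0.0213) and Gmnn (-0.69 ± 0.097, adjusted p = 6.96e-05) were among the lowest, and Pole was at least 1.2-fold lower (adjusted p = 0.00148). Median scaling gave 6 higher and 4 lower, and no normalization 2 higher and 10 lower. Leaving out treated wild type replicate 1, untreated wild type replicate 1 or untreated wild type replicate 2 left 6 lower; the call for Rfc5 was lost without treated wild type replicate 1 or 2 or untreated wild type replicate 1 or 3. Among genes above background, 16.8% were higher and 16.4% lower with the drug in floxed basophils, and 18.6% higher and 17.8% lower in wild type basophils. The counts of replication genes that passed lie near this background and are not read as a result about them.

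Whether the drug acted differently on the genotypes was tested as an interaction, the drug effect in floxed minus that in wild type basophils. Of 48 genes, 3 had a positive and 6 a negative interaction, against 7.33% and 7.28% of all genes (10.6% and 10.5% of genes above background). Chaf1b had the largest, 1.23 ± 0.26 (SE, adjusted p = 0.00412), with a drug effect of 0.67 in floxed and -0.56 in wild type basophils. Prim1 had 0.71 ± 0.17 (adjusted p = 0.0107), where the drug effect was -0.12 in floxed and -0.83 in wild type basophils. E2f2 had -0.83 ± 0.14 (adjusted p = 0.000503), Fen1 -0.74 ± 0.15 (adjusted p = 0.00309), Cdc45 -0.67 ± 0.11 (adjusted p = 0.000531) and Mcm6 -0.59 ± 0.14 (adjusted p = 0.0082). For Fen1 the drug effect was 0.22 in floxed and 0.96 in wild type basophils, and for Cdc45 it was -0.72 in floxed and -0.05 in wild type basophils. Median scaling left 0 positive and 4 negative interactions, and no normalization gave 6 positive and 2 negative. For the other 39 genes the interaction did not pass, which does not show that the drug acted alike in both genotypes.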

How the data were processed

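Gene expression was measured on single-dye arrays, 1 for each of 18 mouse samples. Per the labels' protocols, total RNA was isolated with Trizol and a column kit before dye labelling. The authors deposited linear intensity values, already background-subtracted, since 743 to 1042 probes per array are below 0; scanner, software, slides and any prior normalization are not given in the sources consulted. All 26423 probes were quantile normalized together and put on the scale log2(intensity + 16), so fold changes of dim genes are understated; levels printed are normalized intensities. Group means were fitted for every probe over all 18 arrays (limma 3.58.1, R 4.3.3, moderated two-sided tests with 12 residual degrees of freedom), for 8 comparisons, and p-values were adjusted by Benjamini-Hochberg over all probes, with a threshold of 0.05. A gene under 30 on every array of a group counts as at background there. That limit was set with the data known, and folds against such a group are lower bounds. The platform annotation gave 1 symbol for 21876 probes and none for 4547. Promoters came from a RefSeq table; no genome was used.

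The replication genes and all other lists were chosen with earlier results of these data known, so no p-value is given for a list. They were 39 further replication genes, 31 regulators of G1 to S and 20 mitosis genes, of which 38, 29 and 18 were measured, and markers of basophils, mast cells, neutrophils, eosinophils, monocytes and macrophages, erythroid cells, megakaryocytes, B cells, T and NK cells and stem and progenitor cells. A list of 2 Rfc2 neighbours was added after the values were seen, and its results are not given here. Any replication gene could be named by its level. In each comparison the 4 highest and 4 lowest of those that passed were named with their statistics. In each of 9 roles the brightest gene and the one with the widest range of group means were given by array. Up to 4 genes of each other list were named, by size of change. Alternatives were median scaling, no normalization, an offset of 50, leaving out the dimmest 30% of probes, an intensity trend, a block for replicate number, averaging the probes of a gene, fits on the arrays of an experiment alone and each array left out. Scaling on probes above background was chosen after seeing the data. Same-numbered replicates did not deviate together (correlations of deviations -0.385 to 0.119). The fits were tested on simulated data.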

Additional observations from a re-analysis of the deposited data

Results flagged for a closer look

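The response to 4-hydroxytamoxifen differed between floxed and wild type basophils for 9 of the 48 replication genes, by limma's test of the interaction with adjusted p under 0.05. This lies near the share over all genes above background, where 10.6% had a positive and 10.5% a negative interaction, and is not read as a result about these genes. Chaf1b had an interaction of 1.23 on the log2 scale, with a drug effect of 0.67 in floxed and -0.56 in wild type basophils. Prim1 had 0.71, with -0.12 in floxed and -0.83 in wild type basophils. Uhrf1 had 0.41, with 0.37 in floxed and -0.04 in wild type basophils. E2f2 had -0.83, with -1.14 in floxed and -0.31 in wild type basophils. Fen1 had -0.74, with 0.22 in floxed and 0.96 in wild type basophils. Cdc45 had -0.67, with -0.72 in floxed and -0.05 in wild type basophils. Mcm6 had -0.59, with -0.39 in floxed and 0.20 in wild type basophils. Pola2 had -0.42, with -0.01 in floxed and 0.41 in wild type basophils. Rfc3 had -0.42, with -0.12 in floxed and 0.30 in wild type basophils. With median scaling the calls for Chaf1b (0.89), Prim1 (0.42), Uhrf1 (0.15), Pola2 and Rfc3 were lost, and without normalization those for Cdc45 (-0.43), Mcm6 (-0.43), Pola2 and Rfc3. The call for Uhrf1 was also lost with the replicate block, on the arrays of the experiment alone, with scaling on probes above background and without any 1 of 8 of the cultured basophil arrays. E2f2 and Fen1 kept their call under all alternatives.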

How the results depend on the processing

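Counts of replication genes in the main direction kept within 1.5 times under all alternatives for fresh basophils over wild type cultures (45 higher), fresh basophils over mast cells (34 higher), wild type cultures over mast cells (43 lower), and floxed over wild type basophils with (31 higher) and without the drug (37 higher). Counts in the minor direction moved, except for floxed over wild type basophils with the drug, where 4 lower stayed between 3 and 5. For fresh basophils over mast cells, 5 lower became 1 with median scaling, 0 without normalization, and 3 with the replicate block, with scaling on probes above background and on the arrays of the experiment alone. Without normalization Chaf1b (0.088), Rpa3 (0.15) and Tk1 (0.22) turned to higher in fresh basophils, where the median of all probes moved to 0.16. For fresh basophils over wild type cultures, 1 lower became 0 with median scaling and 0 without normalization, and for wild type cultures over mast cells 1 higher became 2 without normalization. For untreated floxed over untreated wild type basophils, 1 lower became 0 with median scaling and 2 with an offset of 50 or an intensity trend. For the drug in floxed basophils, 8 higher became 0 with median scaling. For the drug in wild type basophils, 6 higher became 2 without normalization and 10 without the dimmest probes, and 10 lower became 4 with median scaling. For the interaction, 3 positive became 0 with median scaling, 6 without normalization and 5 without the dimmest probes, and 6 negative became 2 without normalization; the median of all probes moved to -0.13 with median scaling and to 0.12 without normalization. Leaving out each array gave 32 to 34 higher and 3 to 4 lower for fresh basophils over mast cells, 45 to 46 higher and 1 lower over wild type cultures, and 42 to 44 lower and 1 higher for wild type cultures over mast cells. It gave 27 to 30 higher and 4 to 5 lower for floxed over wild type basophils with the drug, and 31 to 37 higher and 1 lower without it. For the drug it gave 4 to 7 higher and 5 to 10 lower in floxed, and 5 to 6 higher and 6 to 7 lower in wild type basophils, and for the interaction 2 to 3 positive and 5 to 6 negative. The labels do not say whether same-numbered replicates of different groups shared more than a number. With the replicate block 29 genes were higher and 4 lower for floxed over wild type basophils with the drug, and 35 and 1 without it. Under that block 2 interactions were positive and 6 negative. Of 852 values of named genes recomputed under the alternatives, 791 kept their call, 58 lost it and 3 reversed; the cause of these changes was not tested. Where 1 compared group was at background, as in some comparisons for Cdc6, Pole and Orc1, a gene carries a bound only. Where both were, no fold was measured.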

Other observations

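Some regulators of the cell cycle outside the replication list differed in their response to the drug between the genotypes. Of 29 regulators of G1 to S, 3 had a positive and 2 a negative interaction. Among all genes above background the shares were 10.6% and 10.5%, so this count is not read as a result about these regulators. Their calls were not recomputed under the alternatives. Myc had an interaction of -1.24 on the log2 scale (adjusted p = 0.00028), with a drug effect of -1.09 in floxed and 0.14 in wild type basophils. The Cdk inhibitor Cdkn2b had -1.02 (adjusted p = 6.95e-05), with -0.76 in floxed and 0.27 in wild type basophils. Fbxw7, a ubiquitin ligase subunit that targets cyclin E, had 0.78 (adjusted p = 0.00148). Cdk6, a kinase of G1, was higher with the drug in both genotypes (1.02 in floxed and 1.54 in wild type basophils), as was the Cdk inhibitor Cdkn2d (0.91 in floxed and 0.91 in wild type basophils).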
